A study of Mus musculus with 33 samples.

Results

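The genes described here encode the subunits of voltage-gated sodium and calcium channels, measured by RNA-Seq in the frontal cortex of mouse offspring exposed to e-cigarette aerosol in early life. They were taken by a rule on names: every gene whose symbol starts with Cacn, or with Scn followed by a digit, was taken from the read count tables. A gene was kept when its CPM (reads of the gene scaled to the total of the library), summed over the libraries of a table, reached 5 in both tables. Of 23366 genes in each table, 40 had such a symbol and 37 were kept. The 24 calcium channel genes comprise 9 that encode the pore-forming alpha1 subunit, 4 alpha2delta, 4 beta and 7 gamma genes, and the 13 sodium channel genes comprise 9 pore-forming alpha and 4 beta genes. Cacna1f, Cacng1 and Scn4a, whose best known sites are retina and skeletal muscle, fell below the filter. No measured difference between treatments entered the name rule or the filter. The gene family itself was chosen with earlier results of these data known.

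All animals were C57BL/6 mice, about 1 month old at collection. Dams, and after birth dams with their pups, breathed filtered air (the label Control), aerosol of an e-cigarette liquid with 13 to 16 mg/mL nicotine (ExposedNic), or aerosol of a liquid without nicotine (ExposednoNic). The libraries analysed were 6 after air, 5 after aerosol with nicotine and 5 after aerosol without nicotine from offspring labelled female, and 6, 6 and 5 from offspring labelled male. Each offspring came from its own litter, per the study's methods. The exposure was of the whole body, so that a treatment covers everything the dam and litter took up from the chamber and not nicotine or solvent alone. The libraries of each sex formed a sequencing run of their own, so sex and run cannot be told apart, and levels were compared between treatments within a sex.

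Voltage-gated sodium channels open on depolarization and carry the upstroke of the action potential, and voltage-gated calcium channels turn depolarization into calcium entry, which triggers transmitter release at synapses and shapes dendritic signalling and gene expression. The pore is the alpha (sodium) or alpha1 (calcium) subunit, which also holds the voltage sensor. Auxiliary subunits set how much pore protein reaches the membrane and how the channel opens and closes: beta and alpha2delta subunits for calcium channels, and single-span beta subunits with an immunoglobulin fold for sodium channels. Most brain members of the gamma family, although named for the calcium channel of muscle, are best known as transmembrane regulators of AMPA-type glutamate receptors.

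Depth was similar across libraries, with 19150562 to 27513174 counts in female and 17845672 to 24787955 in male libraries. Replicate 21 of the nicotine group labelled male held 219.3 CPM of Xist with only 1 count over the Y-linked genes, values of the kind found in libraries labelled female, and the counts of male calls with nicotine are therefore also given without it. In whole tissue, fewer cells of a type and less RNA per cell cannot be told apart, and this holds for every difference below. The libraries carried all 16 cortical glutamatergic markers examined, and also all 12 markers of striatal projection neurons and all 9 of basal forebrain cholinergic neurons, none of them at 0 counts in any library.

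The sequences directly upstream of 4 of these genes are shown because their genes were called most often or changed most: Cacna2d1, Cacna2d2 and Cacna1b were called in 3 of the 4 comparisons with air, Cacna2d2 higher and the others lower, and Scn9a had the greatest log2 fold change among the members called. Each is the 250 bases before the annotated start from RefSeq on GRCm38.p6, written 5′ to 3′ on the gene's strand, with the GC box (GGGCGG, or CCGCCC on the other strand) in capitals.
Cacna2d1 (chr5:15934441-15934690, + strand): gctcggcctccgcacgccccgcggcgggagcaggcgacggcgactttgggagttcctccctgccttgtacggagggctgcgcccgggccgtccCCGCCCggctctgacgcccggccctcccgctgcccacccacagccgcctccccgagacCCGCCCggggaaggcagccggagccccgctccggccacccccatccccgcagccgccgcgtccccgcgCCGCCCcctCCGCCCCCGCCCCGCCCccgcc
Cacna2d2 (chr9:107399630-107399879, + strand): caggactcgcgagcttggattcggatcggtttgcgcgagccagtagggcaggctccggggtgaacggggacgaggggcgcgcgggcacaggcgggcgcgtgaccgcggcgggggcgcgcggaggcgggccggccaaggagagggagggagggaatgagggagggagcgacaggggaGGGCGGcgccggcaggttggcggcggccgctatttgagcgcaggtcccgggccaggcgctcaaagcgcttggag
Cacna1b (chr2:24763153-24763402, - strand): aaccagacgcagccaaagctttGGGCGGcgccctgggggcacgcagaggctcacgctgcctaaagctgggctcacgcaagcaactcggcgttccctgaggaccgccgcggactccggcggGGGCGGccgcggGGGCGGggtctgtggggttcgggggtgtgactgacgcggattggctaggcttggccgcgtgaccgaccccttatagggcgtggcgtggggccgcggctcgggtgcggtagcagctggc
Scn9a (chr2:66634963-66635212, - strand): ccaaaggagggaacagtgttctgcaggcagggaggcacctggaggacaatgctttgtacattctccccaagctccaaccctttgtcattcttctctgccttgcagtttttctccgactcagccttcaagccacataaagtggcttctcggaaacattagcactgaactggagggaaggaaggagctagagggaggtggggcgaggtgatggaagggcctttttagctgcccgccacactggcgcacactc
The Cacna2d1 stretch is 82.4% G or C and holds 6 GC boxes, that of Cacna2d2 74.4% with 1, that of Cacna1b 72% with 3, and that of Scn9a 54.4% with none. Genes that changed in opposite directions thus both had GC-rich upstream sequence. Such a window was available for 28 of the 37 genes, of which 11 (39.29%) held a GC box, against 32.94% of 27018 genes with a window of the same length. A TATA box (TATAAA on either strand) was found in 1 of the 28, Cacna1d, and in 12.97% of all windows, and a CCAAT box (CCAAT on either strand) in 7 of the 28 and in 34.47% of all. These are matches of letters only, and no motif contains another.

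In offspring exposed to filtered air, levels per length of transcript spanned more than 3 orders of magnitude, and they are given as CPM per kb of exon (mean ± SD, n = 6). Of the 35 genes given by name, the most abundant in both sexes was Scn2b, a sodium channel beta subunit, with 109 ± 5.44 in females and 101 ± 8.84 in males. It was followed by Cacnb3, a cytoplasmic calcium channel beta subunit (97.3 ± 11.2 and 91.8 ± 6.42), and by the AMPA receptor regulator Cacng3 (84.2 ± 5.06 and 76.4 ± 4.15). In males the values of Scn2b and Cacnb3 lay within their SDs of each other. Among pores, Scn2a1, which serves the axon initial segment of excitatory neurons, and Scn8a, the channel of initial segments and nodes of Ranvier, led the sodium channels with 42.2 ± 4.05 and 29.4 ± 3.05 in females. Cacna1i, Cacna1e and Cacna1a led the calcium pores, with 16.8 ± 2.81, 16.5 ± 1.77 and 9.26 ± 1.27 in females, of which the former pair lay within their SDs.

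**Figure D1:**
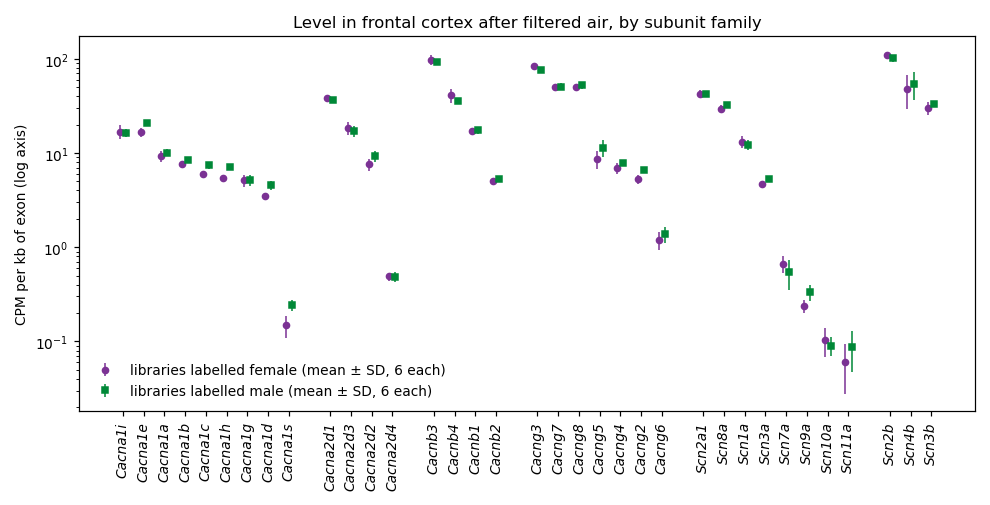
Level of 35 of the 37 genes after filtered air, as CPM per kb of exon on a log axis (mean ± SD of 6 libraries per sex), grouped by subunit family and ordered by the female mean. Scn2b stands at the top with 109 and 101, and the peripheral sodium channels Scn10a and Scn11a stand at the bottom with values near 0.1 or below.

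The lowest levels belonged to genes best known outside the cortex. Scn11a and Scn10a, sodium channels of peripheral sensory neurons, had 0.0607 ± 0.0327 and 0.105 ± 0.0358 CPM per kb in females, and Cacna1s, the skeletal muscle pore, had 0.149 ± 0.0386. Their lowest libraries held 3, 5 and 16 reads in females, so that small changes of these genes were not detectable at this depth. The coefficient of variation between air libraries ran from 3.76% (Cacng8) to 53.88% (Scn11a) in females (median 12.91%) and from 3.65% (Cacng4) to 46.42% (Scn11a) in males (median 8.77%). Scn4b, a beta subunit abundant in striatum, was also variable between air libraries, with 39.9% in females and 32.4% in males. The exon models of Cacng8 and Cacng6 hold 663 and 783 bases, short of their untranslated parts, so their per-length levels are upper estimates.

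Against filtered air, the aerosol without nicotine was accompanied by lower expression of the presynaptic calcium pores Cacna1a, Cacna1b and Cacna1e, of 2 of the 4 calcium channel beta genes (Cacnb3 and Cacnb4), of Cacna2d1 and of the sodium channels Scn8a and Scn2a1, and by higher expression of Cacna2d2 and Scn9a, in both sexes. In females 16 of the 37 genes passed an adjusted p below 0.01 (edgeR's quasi-likelihood test, Benjamini-Hochberg adjusted over all genes tested), 3 higher and 13 lower, which is 43.24% of the members beside 12.1% of all genes (5.03% higher and 7.03% lower). In males 14 passed, 3 higher and 11 lower, or 37.84% beside 13.6% of all genes (6.15% higher and 7.47% lower). The members shared by both sexes numbered 12, and all 12 had the same direction in each: Cacna1a, Cacna1b, Cacna1c, Cacna1e, Cacna2d1, Cacnb3, Cacnb4, Cacng3, Scn2a1 and Scn8a were lower, and Cacna2d2 and Scn9a higher. The share of all genes called in both sexes was not determined. The female libraries without nicotine and with air did not overlap for 9 members (24.32%, beside 10.7% of all genes), and those labelled male did not for 14 (37.84%, beside 12.4%).

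With nicotine the calls were fewer. In females 5 members passed (13.51%, beside 4.29% of all genes, 1.98% higher and 2.32% lower): Cacna2d2 rose, and Cacna1b, Cacna2d1, Cacna1g and Scn7a fell. At an adjusted p below 0.05 there were 16 (43.2%, beside 12.5% of all genes). Under upper quartile scaling the 5 became 2 higher and 3 lower, and the 651 calls among all genes went from 300 higher and 351 lower to 372 and 242. The groups did not overlap for 5 members (13.51%, beside 6.67% of all genes). In males 0 members passed (0.0% of all genes did), while 11 of 37 (29.73%) had an unadjusted p below 0.05, beside 14.4% of all genes, and DESeq2 called 1 member, Cacna2d2. Only Cacna2d2 was below an adjusted p of 0.05 among the members, as were 0.379% of all genes, and 2 members (5.405%) did not overlap, Cacna2d2 above and Cacnb3 below air, beside 2.05% of all genes. Without the library labelled replicate 21 these counts stayed at 0 called, 11 with unadjusted p below 0.05 (13.1% of all genes then) and 2 without overlap (2.47% of all genes then). The male log2 fold changes of the 12 genes given library by library moved by at most 0.117 without it (Scn7a, to -0.39) and none of these 12 changed sign, while the uncalled Cacng5 and Scn1a went from 0.08 and 0.02 to -0.07 and -0.0022.

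The members leaned to lower values in each comparison. Log2 fold changes were below 0 for 23 of 37 members in females with nicotine (62.16%, against 49.0% of all genes), 22 without nicotine (59.46% against 47.9%), 22 in males with nicotine (59.46% against 47.2%) and 24 without (64.86% against 46.1%). The median changes were -0.09, -0.15, -0.10 and -0.14 in that order, beside 0.0041, 0.0092, 0.0065 and 0.016 over all genes tested. In every comparison with air 19 members were below air and 10 were above. At least 1 call was made for 19 members and none for 18. The matching counts over all genes were not determined, so these counts do not set the members apart from other genes. The comparisons of a sex share their air libraries, so their values are not independent of each other.

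**Figure D2:**
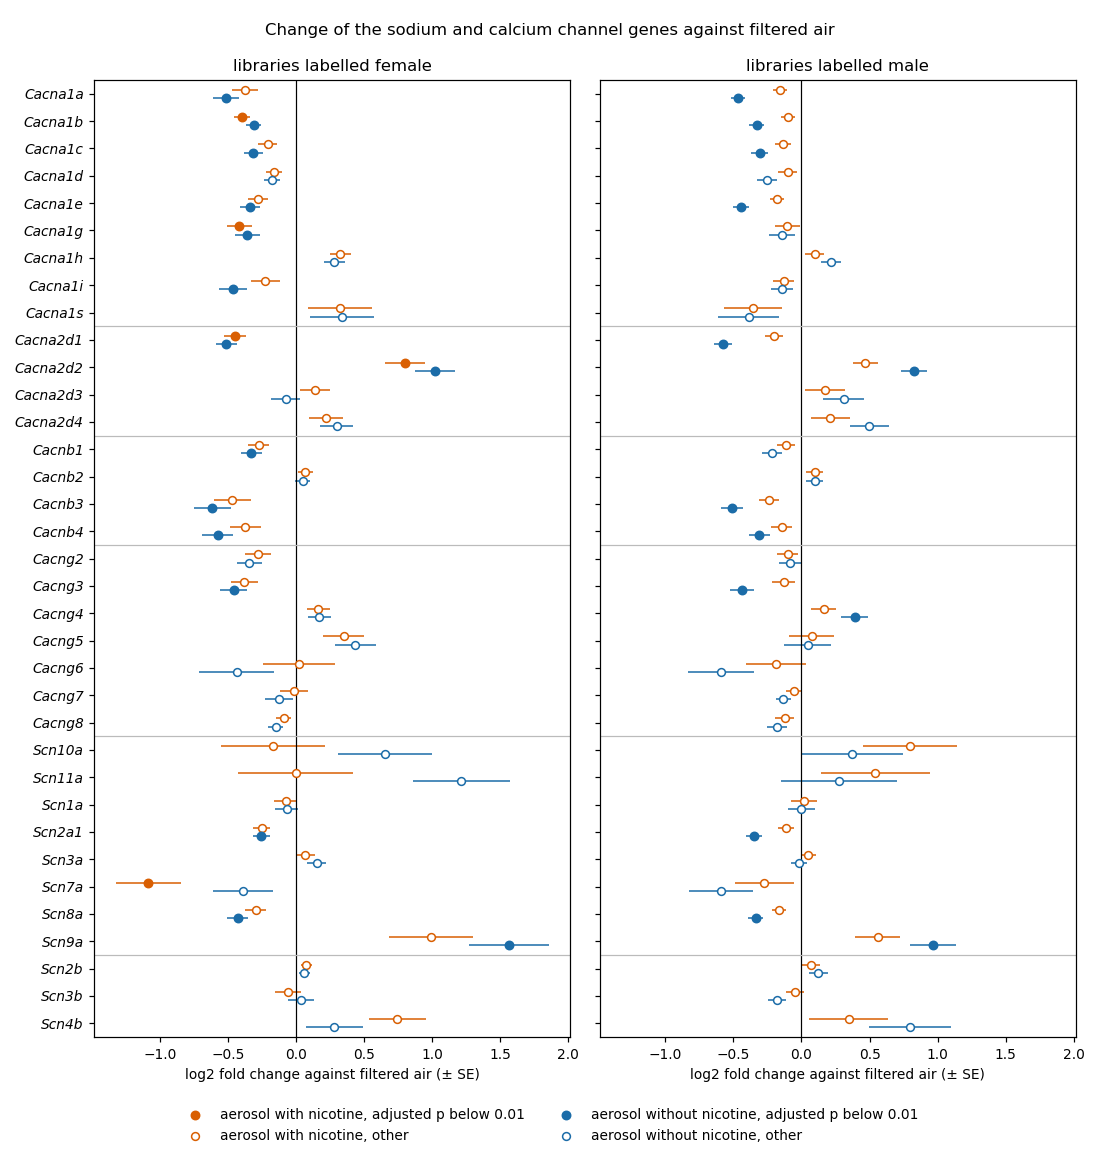
Log2 fold change against filtered air (± SE) of 35 of the 37 genes, by subunit family, with nicotine (orange) and without (blue), in libraries labelled female (left) and male (right), where filled points passed an adjusted p below 0.01. Most filled points lie left of 0, between -0.26 and -0.61 apart from Scn7a, and Cacna2d2 and Scn9a lie to the right in both panels.

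Marker genes of other cells and regions moved with the treatments, and they are given here because the channel genes differ between cell types. Their calls stand beside 2.32% of all genes lower and 1.98% higher in females with nicotine. Without nicotine these shares were 7.03% and 5.03% in females, and 7.47% and 6.15% in males. The 16 cortical glutamatergic markers had a summed level of 3392 to 4123 CPM in female air libraries, 2489 to 3234 with nicotine and 1726 to 3268 without. In males the sums were 3273 to 3831, 2516 to 3276 and 1577 to 2559 CPM, so that both female exposed groups and the male group without nicotine lay wholly below air. Of the 16, 11 fell and 1 rose in females without nicotine and 10 fell and 1 rose in males without nicotine, with median log2 fold changes of -0.64 and -0.55. The 9 basal forebrain cholinergic markers summed to 25.5 to 93.0 CPM in female air libraries, 96.7 to 214 with nicotine and 120 to 306 without. In males they summed to 44.0 to 93.5, 108 to 159.7 and 127 to 262 CPM, so that every exposed group lay wholly above air. Of the 9, 8 rose in females with nicotine, 9 in females and 8 in males without nicotine, and 0 were called in males with nicotine.

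The 11 oligodendrocyte and myelin markers went from 8893 to 10770 CPM after air to 14540 to 18530 with nicotine and 11970 to 18090 without in females, and in males from 10250 to 12620 after air to 10470 to 16260 with nicotine, which overlapped air, and 14970 to 25630 without. Of these 11, all rose in females with nicotine, 10 without nicotine, and 10 in males without nicotine. Striatal projection neuron markers summed to 1284 to 2972, 2641 to 3645 and 2293 to 2903 CPM in the female groups (air, with and without nicotine) and to 1712 to 2953, 1887 to 3773 and 2021 to 5319 CPM in the male groups, and 3, 1, 0 and 3 of their 12 rose with and without nicotine in females and with and without nicotine in males. When the mean log2 level of the cortical markers entered the fit as a covariate, 0 members passed in any comparison with air, while 8, 6, 4 and 11 had an unadjusted p below 0.05 (females with and without nicotine, then males), or 21.6%, 16.2%, 10.8% and 29.7%, beside 11.4%, 5.44%, 7.74% and 17.1% of all genes. Under that fit 0, 0, 0 and 13 of all genes passed. This score ran from 6.23 to 6.57 (log2 CPM) in female air libraries, from 5.53 to 6.28 with nicotine and from 5.51 to 6.10 without. In males it ran from 6.26 to 6.37 after air, from 5.84 to 6.15 with nicotine and from 5.31 to 6.10 without. Only the female nicotine group overlapped air in this score. Score and treatment cannot be told apart in the other exposed groups, the male nicotine group among them. All 25 called changes of the 12 genes given library by library below kept their sign with the covariate, 22 of them at a smaller size. The part of these cells in the channel results was not tested.

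**Figure D3:**
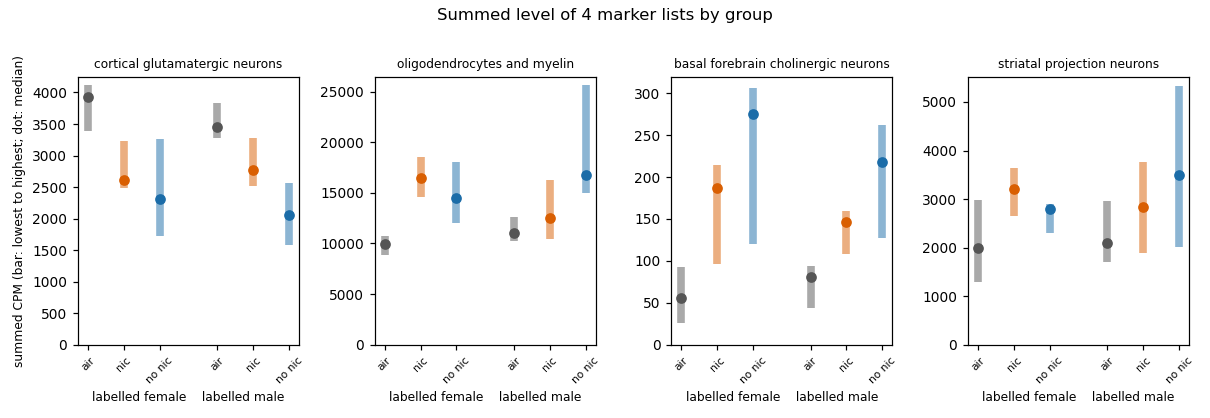
Summed CPM of 4 marker lists in each treatment group and sex, with bars from the lowest to the highest library and dots at the median. Cortical glutamatergic markers are lower, and cholinergic and myelin markers higher, in the groups without nicotine than after air, with no overlap in either sex.

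Among the 4 alpha2delta genes, Cacna2d1 and Cacna2d2 changed in opposite directions. Alpha2delta subunits are largely extracellular proteins that carry calcium channels to the membrane, and the products of Cacna2d1 and Cacna2d2 both bind the drug gabapentin. Cacna2d1 (mm9 chr5:15440509-15880329, + strand) is the major form of cortical excitatory neurons. In female libraries it had from 285 to 351 CPM (median 327) after air, 221, 255, 246, 256 and 199 CPM with nicotine and 251, 194, 211, 227 and 243 CPM without. Every exposed female library lay below every air library, and Cacna2d1 fell with nicotine (log2 fold change -0.45 ± 0.08, adjusted p = 0.00237) and without (-0.51 ± 0.08, adjusted p = 0.000841). Male libraries ran from 276 to 318 CPM (median 307) after air and from 231 to 289.6 CPM (median 267) with nicotine, and those without nicotine had 225, 171, 199, 204 and 217 CPM. The male group without nicotine lay below both others, and it fell against air (-0.58 ± 0.07, adjusted p = 2.62e-05), whereas the nicotine group overlapped air (-0.20 ± 0.07, adjusted p = 0.156).

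Cacna2d2 (mm9 chr9:107301943-107431677, + strand), the gene mutated in ducky mice and best known in cerebellar Purkinje cells, moved the other way. It had from 39.2 to 55.0 CPM (median 44.5) in female air libraries, 80.7, 91.5, 57.9, 77.1 and 89.7 CPM with nicotine and 62.6, 108, 116, 79.5 and 97.2 CPM without nicotine. No exposed female library overlapped air, and expression rose with nicotine (0.80 ± 0.15, adjusted p = 0.00301) and without (1.02 ± 0.15, adjusted p = 0.000841, 2.03-fold). In males it ran from 43.6 to 67.4 CPM (median 57.0) after air and from 70.2 to 79.7 CPM (median 78.7) with nicotine, and without nicotine the libraries had 102, 115, 111, 85.0 and 82.3 CPM. The 3 male groups did not overlap, and the rise passed without nicotine (0.83 ± 0.10, adjusted p = 2.16e-05) but not with it (0.47 ± 0.09, adjusted p = 0.0416; without the library labelled replicate 21, 0.46 ± 0.10 with adjusted p = 0.0868). Leaving out female nicotine replicate 2 or 6 took the female nicotine call to an adjusted p of 0.0112 or 0.0105. An antisense gene, Gm17141, overlaps 82 exon bases of Cacna2d2, and the strand setting of the counting is not given in the sources used here.

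The remaining alpha2delta genes were not called. Cacna2d3 had log2 fold changes from -0.08 (females without nicotine) to 0.31 (males without nicotine). Cacna2d4, the form of retinal photoreceptors, was measured at a low level and lay above air in all comparisons, most in males without nicotine (0.50 ± 0.14, adjusted p = 0.0166). As a description with no test, and chosen after its values were seen, the within-library log2 ratio of Cacna2d2 to Cacna2d1 was -2.82 ± 0.26 (SD) after air, -1.58 ± 0.35 with nicotine and -1.31 ± 0.48 without in females. In males it was -2.45 ± 0.25, -1.77 ± 0.19 and -1.04 ± 0.34. No exposed group overlapped its air group in this ratio.

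**Figure D4:**
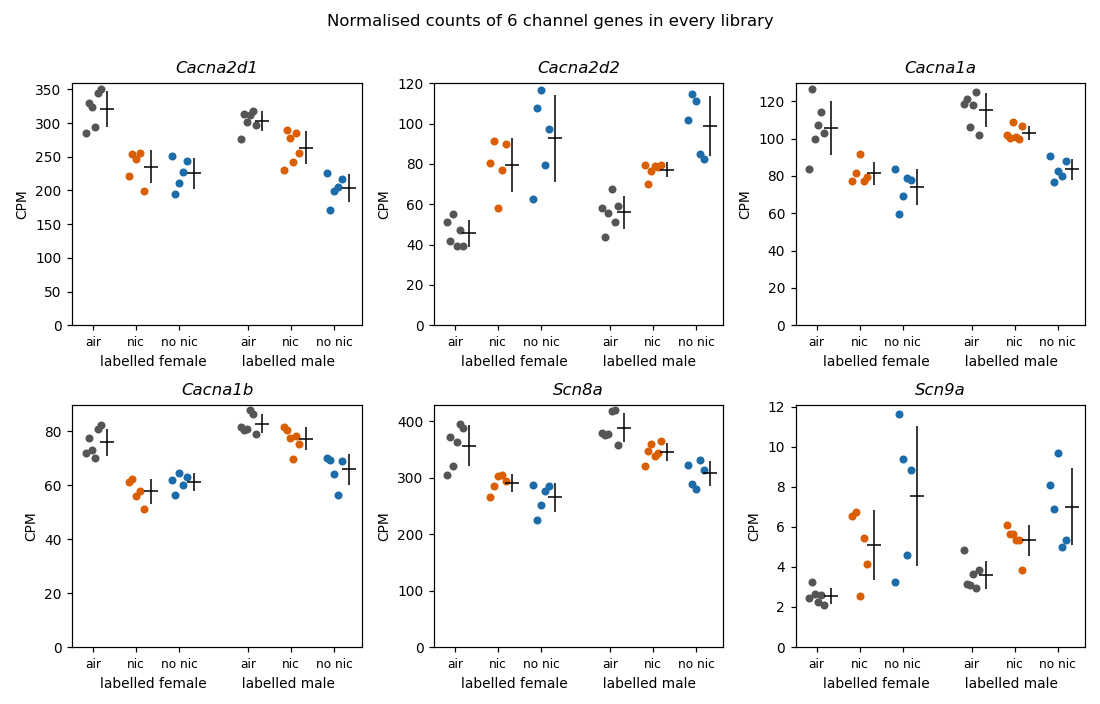
CPM of 6 channel genes in every library (points, with mean ± SD at the right of each group), by treatment (air, with nicotine, without nicotine) and labelled sex. Cacna2d1, Cacna1a, Cacna1b and Scn8a are lower without nicotine than after air, and Cacna2d2 and Scn9a higher, with Scn9a at 12 CPM or less throughout.

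The pore genes of presynaptic calcium channels were lower without nicotine in both sexes. Cacna1a encodes the P/Q-type, Cacna1b the N-type and Cacna1e the R-type channel, which together supply most of the calcium for transmitter release. Cacna1a (mm9 chr8:86912339-87164145, + strand) ran from 83.6 to 127 CPM (median 105) in female air libraries, and had 77.1, 81.7, 91.8, 77.2 and 79.5 CPM with nicotine and 83.8, 59.5, 69.3, 79.1 and 77.7 CPM without. The highest exposed library of each kind lay above the lowest air library. Cacna1a fell without nicotine (-0.52 ± 0.10, adjusted p = 0.00152) and had -0.38 ± 0.09, adjusted p = 0.0157 with nicotine. In males it ran from 102 to 125 CPM (median 118) after air and from 100.02 to 109 CPM (median 101) with nicotine, and without nicotine had 90.5, 76.7, 82.5, 79.9 and 87.8 CPM. The male libraries without nicotine lay below all others and the gene fell against air (-0.47 ± 0.05, adjusted p = 2.16e-05), while the nicotine group had -0.16 ± 0.05, adjusted p = 0.147. The antisense gene Gm16183 overlaps 435 of its exon bases.

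Cacna1b (mm9 chr2:24459407-24618672, - strand) had the calcium pore change that was called in most comparisons. Its female air libraries ran from 70.2 to 82.3 CPM (median 75.4), those with nicotine had 61.1, 62.5, 56.1, 58.0 and 51.1 CPM and those without had 62.0, 56.3, 64.6, 60.0 and 63.2 CPM. Both exposed groups lay wholly below air, and Cacna1b fell with nicotine (-0.40 ± 0.06, adjusted p = 0.000816) and without (-0.31 ± 0.06, adjusted p = 0.00143). Male libraries ran from 79.2 to 88.2 CPM (median 81.3) after air and from 70.0 to 81.5 CPM (median 78.0) with nicotine, and had 70.1, 69.3, 64.4, 56.6 and 69.2 CPM without. The fall passed without nicotine (-0.33 ± 0.05, adjusted p = 0.000275), with no overlap, and the change with nicotine did not pass (-0.10 ± 0.05, adjusted p = 0.381).

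Cacna1e (mm9 chr1:156239649-156573049, - strand) had the highest level per kb of the calcium pores in male air libraries, at 20.9 ± 0.895 CPM per kb (SD). It ran from 176 to 234 CPM (median 212) in female air libraries, with 166, 181, 168, 193 and 158 CPM after aerosol with nicotine and 167, 151, 158, 178 and 177 CPM without. The female groups overlapped at the lowest air library of 176 CPM, and the gene fell without nicotine (-0.34 ± 0.07, adjusted p = 0.00363), a call lost without female air replicate 6 or without replicate 2 or 3 of that exposed group (adjusted p 0.0109 to 0.0137). In males it ran from 250.1 to 279 CPM (median 266) after air and from 210.0 to 259.7 CPM (median 238) with nicotine, and had 222, 197, 179, 191 and 187 CPM without nicotine. There the group without nicotine lay below air and the gene fell (-0.44 ± 0.06, adjusted p = 3.86e-05).

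Calls varied among the L-type and T-type pores, and differences between these genes were not tested. Cacna1c, the main L-type pore of brain, fell without nicotine in females (-0.31 ± 0.07, adjusted p = 0.00416) and in males (-0.31 ± 0.06, adjusted p = 0.00147). Cacna1d lay below air in the same direction without a call (-0.17 ± 0.06, adjusted p = 0.0397 and -0.25 ± 0.07, adjusted p = 0.0152). T-type pores open at low voltage and support rhythmic firing. Cacna1g fell in females with nicotine (-0.42 ± 0.09, adjusted p = 0.00862) and without (-0.36 ± 0.09, adjusted p = 0.00991), and Cacna1i fell in females without nicotine (-0.46 ± 0.10, adjusted p = 0.00454). Neither was called in males without nicotine, where the changes were -0.14 ± 0.10 and -0.14 ± 0.08. Cacna1h, the third T-type pore, lay above air in all 4 comparisons without a call, with 0.33 ± 0.08, adjusted p = 0.0108 in females with nicotine and 0.28 ± 0.08, adjusted p = 0.0127 without. Cacna1s had changes of either sign from -0.39 to 0.34, none of them called. Of the 9 alpha1 genes, 2 fell in females with nicotine (beside 2.32% of all genes), 6 without (7.03%), and 4 in males without nicotine (7.47%), and 0 rose.

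Calcium channel beta subunits are cytoplasmic proteins that bind the pore and chaperone it to the membrane. Cacnb3 (mm9 chr15:98462651-98474961, + strand) was the most abundant per kb. Female libraries ran from 265 to 354 CPM (median 298) after air, and had 222, 195, 282, 191 and 208 CPM with nicotine and 272, 154, 165, 223 and 178 CPM without. A single library of each exposed female group reached into the air range, and the gene fell without nicotine (-0.61 ± 0.14, adjusted p = 0.00413), a call lost without replicate 2, 3 or 5 of that group (adjusted p 0.0130 to 0.0150). In males it ran from 265 to 310.4 CPM (median 283) after air and from 236 to 251 CPM (median 243) with nicotine, and without nicotine had 186, 168, 186, 209 and 256 CPM. Neither exposed male group overlapped air, and the change passed without nicotine (-0.51 ± 0.08, adjusted p = 0.000182) but not with it (-0.24 ± 0.07, adjusted p = 0.143).

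Among the other beta genes, Cacnb4, the gene mutated in lethargic mice, fell without nicotine in females (-0.57 ± 0.11, adjusted p = 0.00223) and males (-0.31 ± 0.08, adjusted p = 0.00773), with 1433 of its exon bases overlapped by the antisense gene A430018G15Rik. Cacnb1 fell in females without nicotine (-0.33 ± 0.08, adjusted p = 0.00518) and had -0.22 ± 0.07, adjusted p = 0.0356 in males. Cacnb2, the form best known in heart, stayed between 0.05 and 0.10 on the log2 scale in all 4 comparisons, with SEs of 0.05 to 0.06. Without nicotine, 3 of the 4 beta genes were called lower in females (beside 7.03% of all genes) and 2 of 4 in males (beside 7.47%), and none higher.

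In the gamma family, Cacng3 (mm9 chr7:129815258-129912905, + strand), an AMPA receptor regulator of cortical neurons, was the most abundant per kb. Its female libraries ran from 113 to 134 CPM (median 131) after air, and had 87.5, 97.1, 121, 96.1 and 90.9 CPM with nicotine and 115, 69.2, 89.6, 97.1 and 95.1 CPM without. It fell without nicotine in females (-0.46 ± 0.10, adjusted p = 0.00414), where 1 library overlapped air and where leaving out replicate 3 or 5 of the exposed group lost the call (adjusted p 0.0138 and 0.010045). In males it ran from 109 to 125 CPM (median 118) after air and from 95.4 to 123 CPM (median 103) with nicotine, and had 88.7, 76.0, 68.4, 100.3 and 97.0 CPM without nicotine, a fall with no overlap (-0.44 ± 0.09, adjusted p = 0.00144).

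Cacng4 (mm9 chr11:107593671-107655871, - strand), a related regulator that is also expressed in glia, went the other way in males. Male libraries ran from 26.9 to 29.4 CPM (median 27.2) after air and from 25.6 to 35.6 CPM (median 31.2) with nicotine, and had 36.5, 33.8, 32.4, 47.5 and 31.3 CPM without. It rose without nicotine (0.39 ± 0.10, adjusted p = 0.00688) with no overlap, although leaving out any of 7 single libraries took it past the threshold (adjusted p 0.0120 to 0.0169). In females it ran from 20.1 to 28.1 CPM (median 24.9) after air, with 27.6, 25.8, 31.5, 26.5 and 26.8 CPM and 27.7, 29.3, 30.1, 28.0 and 23.9 CPM in the exposed groups, and the groups overlapped (0.17 ± 0.08, adjusted p = 0.156 without nicotine). Cacng2, known as stargazin, had -0.34 ± 0.09, adjusted p = 0.0123 in females and -0.08 ± 0.08, adjusted p = 0.516 in males without nicotine. Cacng5, Cacng6, Cacng7 and Cacng8 were not called in any comparison with air.

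Among the sodium pores, Scn8a and Scn2a1 fell and Scn9a rose without nicotine in both sexes, and Scn7a fell in females with nicotine. Scn8a (mm9 chr15:100763860-100876360, + strand) ran from 304 to 396 CPM (median 367) in female air libraries, and had 265, 286, 303, 304 and 295 CPM with nicotine and 286, 225, 252, 277 and 285 CPM without. Both exposed female groups lay below air, the nicotine group narrowly, with a highest library of 303.91 CPM against a lowest air library of 303.99 CPM. The fall passed without nicotine (-0.43 ± 0.07, adjusted p = 0.00118) but not with it (-0.30 ± 0.07, adjusted p = 0.016). Male libraries ran from 357 to 419.7 CPM (median 379) after air and from 320.3 to 365 CPM (median 346) with nicotine, and had 322, 289, 280.4, 332 and 314 CPM without, again wholly below air (-0.34 ± 0.05, adjusted p = 0.000201). The male nicotine group overlapped air (-0.17 ± 0.05, adjusted p = 0.128).

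Scn2a1 (mm9 chr2:65458914-65605504, + strand) was the most abundant sodium pore per kb. It ran from 359 to 442 CPM (median 373) after air, and had 308, 342, 314, 359 and 317 CPM with nicotine and 331, 309, 311, 338 and 349.7 CPM without. The female fall without nicotine (-0.26 ± 0.06, adjusted p = 0.00768) was lost under upper quartile scaling and without any of 7 single libraries (adjusted p 0.0101 to 0.0255), although both exposed groups lay below air, the nicotine group by a margin under 1 CPM. In males Scn2a1 ran from 355 to 430.0 CPM (median 385) after air and from 324 to 395 CPM (median 365) with nicotine, and had 344, 315, 283, 303 and 292 CPM without nicotine, below all air libraries (-0.35 ± 0.06, adjusted p = 0.000458). Exact 50-base windows of its transcript are shared with another gene for 8.29%, and which gene this is was not recorded.

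For the nearest neighbours of Scn2a1 on chromosome 2 no change was called. The mm9 cluster holds Scn3a, Scn2a1, Scn1a, Scn9a and Scn7a in this order. Scn1a, the main sodium pore of fast-spiking interneurons, had log2 fold changes from -0.08 to 0.02 (SEs 0.09 to 0.10), and Scn3a, the pore of the embryonic brain, from -0.02 to 0.15 (SEs 0.05 to 0.07). None of these was called. As a description, the log2 ratio of Scn3a to Scn1a was -1.30 ± 0.30 (SD) in female and -1.002 ± 0.185 in male air libraries, and every exposed group overlapped its air group.

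Scn9a (mm9 chr2:66318137-66473009, - strand), best known in peripheral sensory neurons and also expressed in hypothalamus, rose from a low level. Female libraries ran from 2.09 to 3.26 CPM (median 2.51) after air, with 6.53, 6.74, 2.56, 5.44 and 4.12 CPM after aerosol with nicotine and 3.26, 11.6, 9.36, 4.59 and 8.83 CPM without. A single library of each exposed group lay at or within the air range, and the spread of the exposed groups was several times that of air. Scn9a rose without nicotine (1.56 ± 0.29, adjusted p = 0.00167) and had 0.99 ± 0.31, adjusted p = 0.042 with nicotine. In males it ran from 2.93 to 4.84 CPM (median 3.40) after air and from 3.86 to 6.08 CPM (median 5.49) with nicotine, and had 8.09, 6.90, 9.66, 5.01 and 5.35 CPM without nicotine, all above air (0.97 ± 0.17, adjusted p = 0.000472). The counts behind it were 48 to 240 per library in females and 61 to 240 in males, 5.14% of its 50-base windows are shared with another gene, and the antisense gene Gm13629 overlaps 180 exon bases.

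Scn7a (mm9 chr2:66511482-66622971, - strand), a sodium-sensing relative without ordinary voltage gating, had 2.98, 1.80, 2.52, 3.42 and 0.889 CPM in female nicotine libraries against from 3.06 to 5.67 CPM (median 5.31) after air, and 2.97, 4.46, 4.05, 3.72 and 3.55 CPM without nicotine. It fell with nicotine (-1.08 ± 0.24, adjusted p = 0.00782), but leaving out any of 8 single libraries lost the call (adjusted p 0.0123 to 0.0263), and the lowest library held 22 reads. In males Scn7a ran from 2.62 to 6.13 CPM (median 3.79) after air and from 2.15 to 4.55 CPM (median 3.36) with nicotine, and had 2.79, 2.99, 2.17, 1.82 and 3.46 CPM without (-0.59 ± 0.23, adjusted p = 0.0705). The groups overlapped in males. Scn9a and Scn7a lie next to each other, and their log2 ratio, a description chosen after its values were seen, was -0.94 ± 0.34 (SD) in female air libraries, 1.19 ± 0.89 with and 0.87 ± 0.60 without nicotine. In males it was -0.09 ± 0.49, 0.72 ± 0.46 and 1.40 ± 0.55, with overlap of air and nicotine.

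Scn10a and Scn11a were not called in any comparison with air, nor were the beta genes Scn2b, Scn3b and Scn4b. Scn2b had log2 fold changes from 0.06 to 0.12, and Scn3b from -0.18 to 0.03. Scn4b, which supports resurgent current, had 0.74 ± 0.21, adjusted p = 0.0285 in females with nicotine and 0.80 ± 0.30, adjusted p = 0.0609 in males without, large changes beside a wide spread between libraries. Its log2 ratio to Scn2b, which lies next to it, was -1.15 ± 0.52 (SD) in female air libraries and -0.41 ± 0.29 with nicotine, and overlapped.

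Ratios between related genes were examined as descriptions, with no test. Scn2a1 to Scn8a was 0.13 ± 0.13 (log2, SD) after air and 0.31 ± 0.09 without nicotine in females, and 0.01 ± 0.07 and 0.00011 ± 0.11 in males. The ratio of the N-type to the P/Q-type pore, Cacna1b to Cacna1a, was -0.47 after air in both sexes (SD 0.18 and 0.09) and -0.26 ± 0.17 and -0.34 ± 0.13 without nicotine. Cacna1d to Cacna1c, the L-type pores, was -0.71 ± 0.10 and -0.56 ± 0.07 in females. Cacna1h to Cacna1g was the only planned ratio with a group that did not overlap air, at 0.05 ± 0.32 after air and 0.68 ± 0.09 without nicotine in females. Cacng3 to Cacng2 overlapped air in each exposed group of both sexes, with 1.68 ± 0.16 after air and 1.32 ± 0.10 without nicotine in males.

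Both aerosols were also compared directly, a contrast that cannot isolate nicotine. Per the study's methods, each treatment had its own chamber, and the average particulate level was lower with nicotine than without. In females 0 members passed by edgeR and by DESeq2 (0.0% of all genes by edgeR), and 5 had an unadjusted p below 0.05 (13.51%, beside 8.35% of all genes). In males 1 member passed: Cacna1a was higher with nicotine than without (0.31 ± 0.05, adjusted p = 0.00923), beside 0.248% of all genes (0.222% higher and 0.0262% lower), and its groups did not overlap. Without the library labelled replicate 21 this became 0.31 ± 0.06 with adjusted p = 0.0193, and 0 members passed. At an adjusted p below 0.05 there were 6 members, beside 3.56% of all genes: Cacna1a, Cacna1b, Cacna1e, Cacna2d1 and Scn2a1 were higher with nicotine and Cacna2d2 lower. The groups did not overlap for 3 (8.108%, beside 2.15%), namely Cacna1a, Cacna2d1 and Cacna2d2. Without that library 3 of the 6 were left below 0.05 (1.72% of all genes then): Cacna1a, Cacna1e (adjusted p = 0.0417) and Cacna2d1 (0.0258), whereas Cacna1b had 0.0528, Cacna2d2 0.0743 and Scn2a1 0.0823. With all libraries, for each of the 6 the mean of the male nicotine libraries lay between those of air and of the aerosol without nicotine.

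Whether the changes differed between the sexes was tested in a fit of all 33 libraries. For the aerosol with nicotine 0 members passed by edgeR and by DESeq2 (0.0% of all genes by edgeR), and 6 had an unadjusted p below 0.05 (16.22%, beside 6.47% of all genes): Cacna1b, Cacna1g, Cacna1h, Cacna1s, Cacna2d1 and Scn7a. The smallest adjusted p was 0.335, for Cacna1b. Without the library labelled replicate 21 again 0 passed, and 2 had an unadjusted p below 0.05, Cacna1b (adjusted p = 0.496) and Cacna1s, beside 6.05% of all genes. For the aerosol without nicotine 0 passed by either tool (0.0%), and 2 had an unadjusted p below 0.05, Cacna1i and Cacna1s, beside 4.91% of all genes. The calls made in females with nicotine and not in males were therefore not shown to differ between the sexes.

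Partners of these channels were read from lists of other genes. Of all genes, 2.32% fell and 1.98% rose in females with nicotine. Without nicotine these shares were 7.03% and 5.03% in females, and 7.47% and 6.15% in males. Of the 16 cortical glutamatergic markers, 3, 11 and 10 fell in these comparisons. Of 12 presynaptic genes whose proteins gather calcium channels at release sites or couple them to fusion, 2 fell in females with nicotine, 9 without, and 10 in males without nicotine, and 0 rose. Their summed level ran from 5600 to 6817 CPM in female air libraries, 4806 to 5492 with nicotine and 3980 to 5536 without, and 5721 to 6414, 4910 to 5738 and 4141 to 4732 CPM in males. The smallest p in females belonged to Rimbp2 (-0.50 ± 0.09, adjusted p = 0.00138) and in males to Erc2 (-0.50 ± 0.05, adjusted p = 2.14e-05), an active zone scaffold, with the same adjusted p for Bsn (-0.75 ± 0.08), which encodes the scaffold Bassoon. Among the 4 intracellular fibroblast growth factors that bind sodium channels, Fgf13 fell in females with nicotine (-0.45 ± 0.10, adjusted p = 0.0077) and without (-0.42 ± 0.10, adjusted p = 0.00549) and in males without (-0.56 ± 0.09, adjusted p = 0.000369), where Fgf12 fell too (-0.26 ± 0.07, adjusted p = 0.00979).

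The 8 genes of the axon initial segment and node, which anchor sodium channels, did not share a direction, since Nrcam fell and Nfasc rose without nicotine in both sexes (Nrcam -0.33 ± 0.05 and -0.34 ± 0.04, Nfasc 0.34 ± 0.08 and 0.37 ± 0.09, adjusted p at most 0.00833), while Ank3, the anchor itself, had 0.03 ± 0.05 and -0.02 ± 0.06. Of 10 genes that modulate calcium channels, 3 fell in females without nicotine, Calm2 and Cabp1 among them, and 3 fell and 1, Rem2, rose in males. Of the 7 measured genes for other cation pores, 1 fell in females with nicotine, 1 without, and 1 in males without nicotine, each time Unc80, a subunit of the sodium leak channel. Its pore gene Nalcn had changes from 0.01 to 0.09 that were not called.

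The remaining marker lists completed the account of other cells. Their calls stand beside the shares of all genes given with the partner lists. Of 12 interneuron genes, 2 rose and 1 fell in females with nicotine, 5 and 3 without, and 3 and 3 in males without. Oligodendrocyte precursor genes rose for 3, 4 and 5 of 7, and thalamic genes for 3, 4 and 3 of 9 with 1 fall in males. Among 6 choroid plexus genes 3 rose in males without nicotine and 0 were called in females, and 1 of 10 astrocyte genes rose in males. Of 10 microglial and 10 endothelial and mural genes 0 were called in any comparison with air. In males with nicotine 0 genes of any list were called.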

How the data were processed

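RNA-Seq libraries of 33 offspring were analysed from 2 tables of raw read counts per gene, 1 per labelled sex, which the authors deposited without normalization. The authors mapped single reads to the mm9 transcriptome with Bowtie, removed PCR duplicates with SAMtools and counted reads per gene with HTSeq, so the counts lack duplicate reads. Of 34 count columns 1 matched no labelled sample and was not used. Tables of counts divided by the authors' size factors were not used here.

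Genes with a CPM sum of at least 5 over the libraries of a table were tested, 15158 in females and 15293 in males. For each sex, 1 model with the 3 treatments was fitted in edgeR 4.0.16 (quasi-likelihood test, TMM normalization), p was adjusted by Benjamini-Hochberg over all genes tested, and genes with an adjusted p below 0.01 were called. The difference between the sexes was fitted over all 33 libraries on 15105 genes. All log2 fold changes are given ± SE, and CPM per library are TMM-normalized. With 5 or 6 libraries per group, a p measures the spread between these offspring.

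The genes, gene lists and comparisons were chosen with earlier results of these data known. For 12 genes, each group of libraries is given by its single values or by its range and median. Among genes reported by name, these were called genes with the 3 smallest p in each direction per comparison with air. Genes called between the aerosols or the sexes were added, as was the most abundant gene per kb of each family except the sodium beta genes. In the counts stay 2 of the 37 genes that are not reported by name here. The lists covered fibroblast growth factor homologous factors, initial segment and node, presynaptic partners, calcium channel modulators, other cation pores, and markers of cortical, interneuron, striatal, cholinergic, thalamic, oligodendrocyte, precursor, astrocyte, microglial, vascular and choroid plexus cells. Positions, exon lengths and shared 50-base windows came from the mm9 annotation (GENCODE M1), and upstream sequences from RefSeq. Alternatives were DESeq2 1.42.0, an adjusted p below 0.05, 2 other scalings, a stricter and no filter, fits of only 2 groups, the cortical marker score as covariate, the replicate number as block in females, and leaving out each library. The fits were tested on simulated counts. R 4.3.3, Python 3.11.15, pandas 2.3.3 and matplotlib 3.10.9 were used.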

Additional observations from a re-analysis of the deposited data

Results flagged for a closer look

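A library stood apart from the rest of its group in 3 of the 72 groups of libraries examined for the 12 genes given library by library, where chance gives about 1 in 20. Cacna2d2 in male nicotine replicate 16 was the lowest of its group at 70.24 CPM. Cacng3 in female nicotine replicate 3 was the highest of its group at 121.4 CPM. Scn9a in male nicotine replicate 22 was the lowest of its group at 3.861 CPM. No change of the 37 genes passed the test of a difference between the sexes.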

How the results depend on the processing

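The number of genes called of 37 depended on the threshold, the tool and single libraries. In females with nicotine against air, 5 (4.29% of all genes) became 16 at an adjusted p below 0.05 (12.5% of all genes), 14 with DESeq2 (8.7%) and 1 with the replicate block (0.897%), and 2 to 9 when a library was left out: 2 without nicotine replicate 2 or 6, 3 without air replicate 5 or 6, and 9 without nicotine replicate 3. In females without nicotine, 16 (12.1% of all genes) became 22 at an adjusted p below 0.05 (25.0%), 19 with DESeq2 (17.1%) and 14 with upper quartile scaling (11.9%). The 16 became 8 with the replicate block (4.86%) and 8 to 18 when a library was left out, with 8 without replicate 2 or 3 and 9 without replicate 5 of that group and 10 without air replicate 6. Replicate numbers do not mark a shared animal or litter, and libraries with the same number correlated between -0.273 and 0.266 (14 pairs), so the block is given only for completeness. In males with nicotine, 0 became 1 (Cacna2d2) at an adjusted p below 0.05 (0.379% of all genes) and with DESeq2 (1.04%). In males without nicotine, 14 (13.6% of all genes) became 19 at an adjusted p below 0.05 (24.7%), 16 with DESeq2 (17.2%) and 12 to 14 when a library was left out. Between the aerosols in males, 1 (0.248% of all genes) became 6 at an adjusted p below 0.05 (3.56%), 5 with DESeq2 (2.98%) and 0 (0.0%) in a fit of only the 2 groups, and 0 to 4 when a library was left out: 0 without nicotine replicate 16, 17, 21 or 22 or replicate 3, 4 or 5 of the other group, 4 without nicotine replicate 19, and 3 without replicate 2 or 7 of the other group.

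With the cortical marker score as covariate, 0 of the channel genes were called in each comparison of treatments. Of all genes, 13 (0.085%) were called under this fit in males without nicotine against air. Between the aerosols in males 7 (0.0458%) were called. In the other comparisons of treatments 0 of all genes were called. All 25 called changes of the genes given library by library were lost without a change of sign. Leaving out single libraries lost a call for 32 values of these genes and gained 1 for 6. Scalings and filters on low counts changed 1 call among these genes (Scn2a1 in females). Changes of genes with few reads, such as Scn10a, Scn11a, Cacna1s and Cacng6, are limited by depth.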
